A study of Mus musculus with 6 samples.

Results

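Mitochondrial fatty acid oxidation in mouse liver was followed through 10 genes, Cpt1a, Cpt2, Slc25a20, Acadvl, Acadl, Acadm, Acads, Hadha, Hadhb and Acaa2, which encode the carnitine shuttle and the core enzymes of the oxidation spiral. They were taken as the genes to which the platform annotation assigns probe sets under that symbol alone. Probe sets are the groups of short probes that read out a transcript. All 10 genes, of 12393 genes read by the shared probe sets, had at least 1 probe set. These came to 19 probe sets, of which 18 were on both array designs and were tested.

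The livers came from mice of the inbred strain C57BL/6J, which is known to become obese when its food is rich in fat, and chance decided which mice ate a high-fat or a control diet. The arrays were the high-fat livers of week 2, week 4 and week 10 and the control livers of week 2, week 4 and week 10, with 1 Affymetrix array for each, so no diet had a replicate within a week. The diets' composition, the age and sex of the mice, the hour of collection, and whether an array held 1 mouse or a pool are not given in the sources used here. The study set the diets against each other over time, with key enzymes of lipid metabolism as its main interest.

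Long-chain fatty acids enter the mitochondrion as carnitine esters. Carnitine palmitoyltransferase 1, encoded in liver by Cpt1a, makes the ester on the outer membrane and is the step that malonyl-CoA inhibits, the Slc25a20 carrier moves it across the inner membrane, and Cpt2 turns it back into an acyl-CoA. Chain-length-specific dehydrogenases, the trifunctional protein and a thiolase then shorten the acyl-CoA to acetyl-CoA, which feeds the citric acid cycle and, in liver, ketone body synthesis. Transcription of many of these genes is known to be raised in fasting through the nuclear receptor PPAR-alpha.

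The arrays of week 4 were of a larger design than those of weeks 2 and 10 and were scaled apart, so diets were compared within a week, and levels between weeks only for weeks 10 and 2. The search for genes with similar levels, further on, is an exception that used all 6 arrays. Signals below are linear intensities after each array was centred on its median, and values under a floor of 155.3 were set to it before differences on the log2 scale were taken. All 8 hepatocyte markers read were above the floor on all 6 arrays, with summed signals of 189745 to 363346 on the high-fat arrays, against 290491 to 495048 on the control arrays. The high-fat sum was the lower one at each week, by -0.18, -0.87 and -0.45 on the log2 scale at weeks 2, 4 and 10. Adipoq, Lep, Ucp1 and Cidea of 5 adipocyte markers read, and Myh4, Myh6, Mylpf, Tnnc2 and Mb of 8 muscle markers, were at the floor on every array. The summed adipocyte signals ran from 72.6 to 288.5 on the high-fat arrays, against 124.8 to 414.5 on the control arrays. Those of muscle ran from 190.0 to 643.5 on the high-fat arrays, against 342.9 to 932.0 on the control arrays. The 9 macrophage markers summed to 16324, 25128 and 20170 on the high-fat arrays of weeks 2, 4 and 10, against 17691, 23835 and 11654 on the control arrays, so the high-fat sum was the higher one at weeks 4 and 10 and the lower one at week 2. The ratio of 3' to 5' signal of pyruvate carboxylase, a sign of RNA integrity or labelling, was 9.64, 7.78 and 2.39 on the high-fat arrays, against 3.82, 4.26 and 4.01 on the control arrays. That of beta-actin was 1.61, 2.35 and 1.17 on the high-fat arrays, against 1.20, 2.15 and 1.73 on the control arrays, and that of GAPDH 1.01, 0.81 and 0.83 on the high-fat arrays, against 0.78, 0.82 and 0.91 on the control arrays. The part of RNA quality and of other cells in the results below was not tested. Whether a lower signal in such bulk tissue came from fewer cells or from less RNA per cell cannot be told apart.

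The question for the set was whether its transcripts differed between the diets. On the brightest probe set of each gene the differences were small at every week. At week 2, 8 of the 10 genes had higher values on the high-fat array, with differences from -0.16 to 0.47 and a median of 0.17, where the median over all 8850 genes tested was -0.03. At week 4, 7 of 10 were lower, with differences from -0.46 to 0.70 and a median of -0.10, against 0.00 for all genes. That direction depended on the scaling, since the week 4 median was 0.14 after quantile normalization and 0.19 after a loess correction for brightness. At week 10, 6 of 10 were higher, with differences from -0.47 to 0.81 and a median of 0.02, as for all genes. In the deposited values, where the control array of week 2 was scaled to a higher target than the others, the median of week 2 was -0.50.

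**Figure D1:**
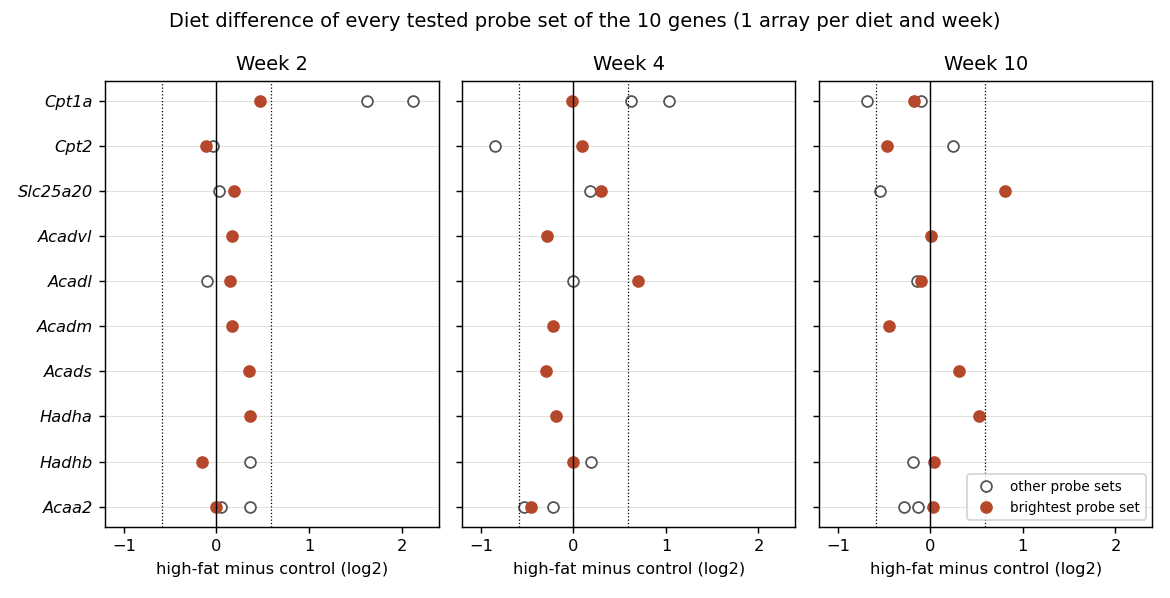
Each point is the log2 difference of a probe set between the high-fat and the control array of a week (horizontal axis), for the 10 genes in pathway order from top to bottom, with filled points for the brightest probe set and open points for the others. Dotted lines mark 1.5-fold. Most points lie between the dotted lines, and the open points of Cpt1a reach 1.63 and 2.12 at week 2.

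Few of the 10 genes reached a 1.5-fold difference in a week on their brightest probe set. None did at week 2, where 6.79% of all genes stood that far above and 8.95% that far below the control array. The 2 other probe sets of Cpt1a were 3.09-fold and 4.34-fold higher at that week. At week 4 Acadl was 1.62-fold higher, where 3.84% of all genes were that much higher, and none of the 10 was lower, where 6.67% of all genes were. At week 10 Slc25a20 was 1.76-fold higher, against 13.6% of all genes higher, and none of the 10 was lower, against 12.7%. A week held 1 array per diet, so these counts carry no test. The standard deviation of the differences among the 10 genes was 0.20, 0.34 and 0.40 at weeks 2, 4 and 10, against 0.43, 0.36 and 0.57 among all genes. The 10 genes had signals of 1799 to 20630 on these probe sets, and all genes were not matched to them for brightness. The part of brightness in the narrower spread and in the counts was not tested.

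**Figure D2:**
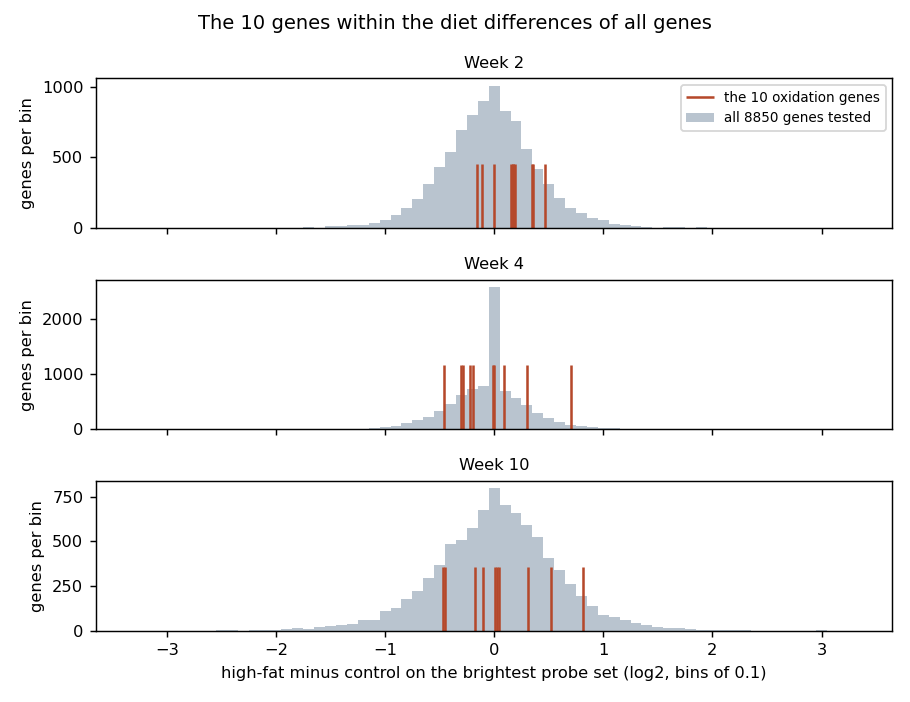
Bars count the 8850 genes tested by their log2 difference between high-fat and control at each week, and red lines mark the 10 oxidation genes on their brightest probe set. At week 10 the red lines span -0.47 to 0.81, while the 5th and 95th percentiles of all genes are -0.91 and 0.90. The tall bar at 0 at week 4 includes genes at the floor on both arrays.

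Over the 3 weeks together, no probe set of the 10 genes differed between the diets in limma's test with week as a block. Of the 14533 probe sets tested, 0.0138% were called higher on the high-fat diet, namely those of Krt23 and Dbp, and 0% lower, so the set is not set apart by having no calls. At an unadjusted p under 0.05 the same limma fit held 1 of the 18 probe sets of these genes, a probe set of Cpt1a, and 586 of all 14533 (4.03%). The mean differences on the brightest probe sets ran from -0.16 for Cpt2 and Acadm to 0.44 for Slc25a20, with standard errors of 0.213 to 0.237 over 3 arrays per diet. Their 95% intervals reached down to -0.67 and up to 0.95. These intervals rest on limma's variance, which is drawn toward that of all probe sets (7.47 prior against 2 residual degrees of freedom). Intervals from a gene's own 3 differences alone were not computed. With limma's variance and this scaling, a change of 2-fold or more in the mean of the 3 weeks lay outside every interval. A change of 1.5-fold did not. The highest bound was that of Slc25a20, whose mean was 0.51 with quantile normalization, 0.53 with loess and 0.56 without week 2. Intervals were not computed for those settings, so the limit of 2-fold holds for the main one alone. The intervals of the 2 other probe sets of Cpt1a, given with that gene, held a 2-fold change. Slc25a20 alone had the same sign at all 3 weeks, as did 8.10% of all genes with higher and 11.3% with lower values.

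Cpt1a, which sets the rate of fatty acid entry, gave differences of unequal size on its 3 probe sets, of the same sign at weeks 2 and 10 and of mixed sign at week 4. On the brightest, 1460409_at, the signals of weeks 2, 4 and 10 were 10514, 5897 and 7574 on the high-fat arrays, against 7573, 5952 and 8595 on the control arrays. The diets differed by 0.47, -0.01 and -0.18 there, and the mean of 0.09 had an interval of -0.42 to 0.61 (limma adjusted p = 0.998, n = 3 arrays per diet). The difference of week 2 turned to -0.19 in the deposited values.

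The other probe sets of Cpt1a, 1434866_x_at and 1438156_x_at, were dimmer and gave larger differences. On 1434866_x_at the signals were 2210, 1484 and 738.3 on the high-fat arrays, against 715.3, 965.6 and 788.7 on the control arrays. Those of 1438156_x_at were 1587, 1031 and 268.5 on the high-fat arrays, against 365.7, 503.9 and 433.0 on the control arrays. On both, the high-fat array was the higher one at weeks 2 and 4 and the lower one at week 10. In fold terms, the high-fat signal of 1438156_x_at was 4.34-fold higher at week 2, 2.05-fold higher at week 4 and 1.61-fold lower at week 10. The mean over the weeks was 0.72 with an interval of 0.02 to 1.42 on 1434866_x_at (limma adjusted p = 0.993, n = 3 arrays per diet). It was 0.82 with an interval of -0.15 to 1.79 on 1438156_x_at (limma adjusted p = 0.993). The suffix x marks probe sets with probes that can also match other sequences. Between the diets, the 3' to 5' ratio of pyruvate carboxylase differed on the log2 scale by 1.33, 0.87 and -0.74 at the 3 weeks. The differences of both probe sets stood in the same order (1.63, 0.62 and -0.10, and 2.12, 1.03 and -0.69). So did those of the brightest Cpt1a probe set, of Acadm, of 1437172_x_at of Hadhb and of 1428145_at of Acaa2, while the remaining tested probe sets of the 10 genes did not. The share of all tested probe sets that stood in this order was not computed, so no link is read from it. For beta-actin the ratio differed by 0.42, 0.13 and -0.56, and for GAPDH by 0.37, -0.01 and -0.12. The part of RNA quality in these values was not tested.

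**Figure D3:**
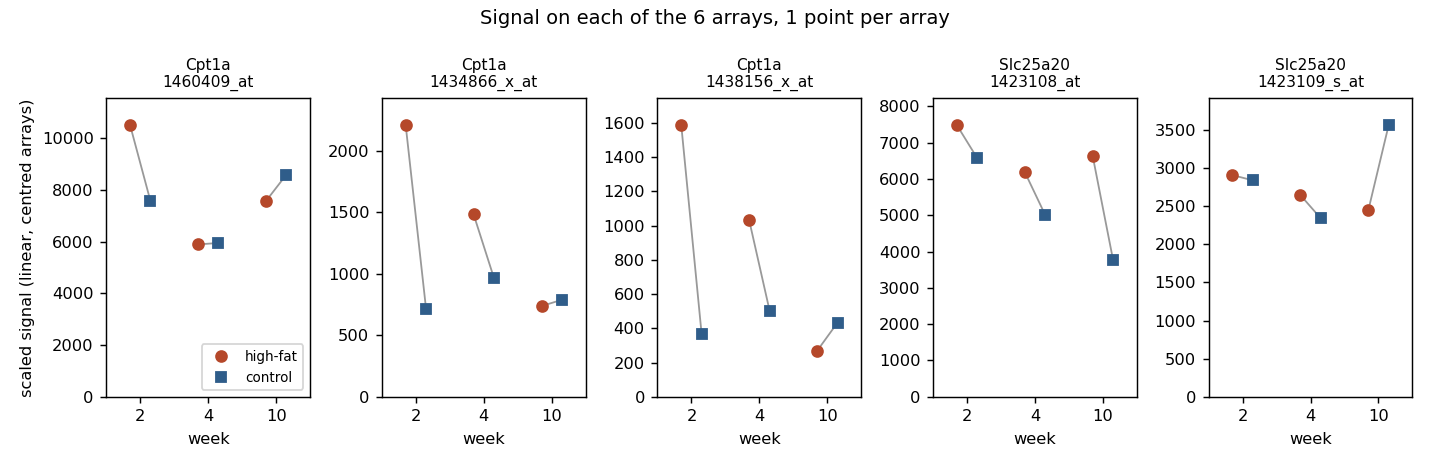
Linear scaled signal (vertical axis, from 0) of the 3 probe sets of Cpt1a and the 2 of Slc25a20 on each array by week, with high-fat as circles and control as squares, 1 array per point. The brightest Cpt1a probe set reads 10514 for high-fat and 7573 for control at week 2, while 1438156_x_at reads 1587 for high-fat and 365.7 for control. The 2 probe sets of Slc25a20 go opposite ways at week 10. Week 4 was scaled apart and is to be read within the week.

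The bases before the Cpt1a start in RefSeq (GRCm38.p6, chr19:3323051-3323300, plus strand) are shown because Cpt1a is the member whose readouts disagree most, and capitals mark GC boxes (GGGCGG on either strand) and a CCAAT box.

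Cpt1a: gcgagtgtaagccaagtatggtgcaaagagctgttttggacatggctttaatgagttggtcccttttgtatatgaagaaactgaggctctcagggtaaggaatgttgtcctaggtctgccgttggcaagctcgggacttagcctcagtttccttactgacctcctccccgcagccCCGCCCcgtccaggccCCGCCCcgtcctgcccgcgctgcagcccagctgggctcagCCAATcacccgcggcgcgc

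A GC box stood in this 250-base window for 7 of the 9 genes that matched the RefSeq promoter table (Cpt1a, Cpt2, Slc25a20, Acadl, Acads, Hadha and Hadhb), against 32.7% of all 32851 promoters. The windows of Hadha and Hadhb overlap, as described further on, and a GC box in the overlap counts for both. The share of G and C in the windows ran from 49.6% for Acadvl to 68.0% for Acadl, against a mean of 53.2% over all promoters. The part of this base content in the GC box count was not tested. A CCAAT box stood in that of Cpt1a alone, against 33.8% of all promoters. The repeat AGGTCANAGGTCA, the form that PPAR-alpha with its partner RXR is known to bind, stood in none of the 9 windows on either strand with up to 2 mismatches, nor did the estrogen-related receptor form TCAAGGTCA or the E-box CACGTG without mismatch. Their shares over all promoters were 3.24%, 0.387% and 6.02%. The single AGGTCA, which both longer forms contain, stood in the windows of Cpt1a, Acadvl and Acadm, against 14.0% of all. These letters describe the window, and known elements of such genes can lie outside it.

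Slc25a20, the carnitine-acylcarnitine carrier, had the largest mean difference of the 10 on the brightest probe sets. On 1423108_at the signals of weeks 2, 4 and 10 were 7483, 6190 and 6629 on the high-fat arrays, against 6573, 5011 and 3768 on the control arrays. The high-fat array was the higher one at each week, the differences were 0.19, 0.30 and 0.81, and the mean of 0.44 had an interval of -0.08 to 0.95 (limma adjusted p = 0.993, n = 3 arrays per diet). Without week 10 the mean was 0.25. On 1423109_s_at the signals were 2909, 2647 and 2446 on the high-fat arrays, against 2840, 2342 and 3565 on the control arrays. The probe sets were alike at weeks 2 and 4 but opposed at week 10, where the second gave -0.54. The 1.76-fold difference of week 10 therefore rests on 1 probe set.

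Cpt2, the inner transferase, had signals of 5253, 4208 and 3448 on the high-fat arrays of weeks 2, 4 and 10, against 5659, 3947 and 4768 on the control arrays, on 1416772_at. The differences were -0.11, 0.09 and -0.47, so the high-fat array was the lower one at weeks 2 and 10. Its dimmer probe set 1447820_x_at had 745.2, 133.2 and 646.3 on the high-fat arrays, against 765.0, 280.0 and 547.3 on the control arrays. The high-fat array of week 4 lay under the floor there, which makes that array at least 1.80-fold lower, and at week 10 this probe set gave 0.24.

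The acyl-CoA dehydrogenases perform the opening oxidation of each round, from very long chains (Acadvl) over long (Acadl) and medium chains (Acadm) to short ones (Acads). Acadvl had 10292, 8593 and 9931 on the high-fat arrays, against 9154, 10479 and 9874 on the control arrays of weeks 2, 4 and 10. Its differences were 0.17, -0.29 and 0.01, and that of week 10 was the smallest in the class. Acadl had 9114, 7156 and 7232 on the high-fat arrays, against 8195, 4407 and 7731 on the control arrays, with differences of 0.15, 0.70 and -0.10. The control array of week 4 stood below the high-fat array of that week, the single 1.5-fold difference among the dehydrogenases. The second probe set of Acadl, 1448988_at, was near or under the floor, with 181.5 and 189.6 at weeks 2 and 10 in high-fat livers, against 194.4 and 209.4 in control livers, and under it on both arrays of week 4, so it could not bear on the week 4 value.

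Acadm, the medium-chain enzyme, had 15284, 10017 and 11670 on the high-fat arrays, against 13567, 11671 and 15887 on the control arrays, with differences of 0.17, -0.22 and -0.45. Acads, for short chains, had 3184, 1799 and 2661 on the high-fat arrays, against 2505, 2209 and 2153 on the control arrays, with 0.35, -0.30 and 0.31. At week 10 the medium-chain enzyme was thus the lower and the short-chain enzyme the higher on the high-fat array, and neither reached 1.5-fold. Mean differences over the weeks were -0.04 for Acadvl, 0.25 for Acadl, -0.16 for Acadm and 0.12 for Acads, and none passed limma's test (adjusted p of 0.993 or above, n = 3 arrays per diet).

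Hadha and Hadhb encode the alpha and beta subunits of the trifunctional protein of the inner membrane, which carries the hydratase and hydroxyacyl-CoA dehydrogenase activities on alpha and the thiolase activity on beta. The genes neighbour each other and are read in opposite directions, with 272 bases between their RefSeq starts, so their upstream windows share 228 bases. The bases before the Hadhb start (GRCm38.p6, chr5:30155003-30155252, plus strand) are shown because 1 stretch serves both genes, with GC boxes in capitals.

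Hadhb: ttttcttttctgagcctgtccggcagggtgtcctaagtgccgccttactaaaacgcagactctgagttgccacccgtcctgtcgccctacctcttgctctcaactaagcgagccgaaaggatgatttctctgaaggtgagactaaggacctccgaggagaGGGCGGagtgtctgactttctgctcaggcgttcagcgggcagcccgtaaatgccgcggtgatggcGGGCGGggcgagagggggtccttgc

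The 2 subunits were not alike on the arrays. Hadha had 7533, 3666 and 7306 on the high-fat arrays, against 5860, 4196 and 5079 on the control arrays, with differences of 0.36, -0.19 and 0.52. Hadhb on its brightest probe set had 8707, 8355 and 8849 on the high-fat arrays, against 9747, 8382 and 8595 on the control arrays, with -0.16, 0.00 and 0.04. Its second probe set, 1437172_x_at, had 7685, 6006 and 4196 on the high-fat arrays, against 5971, 5255 and 4803 on the control arrays, with 0.36, 0.19 and -0.19. At week 10 Hadha was 1.44-fold higher while both probe sets of Hadhb lay within 0.20 of 0, and at week 2 the second probe set of Hadhb gave the value of Hadha. Quantile normalization and the loess correction each brought Hadha to 0.59 at week 10, past 1.5-fold. A probe set of Hadhb found on the larger design alone was under the floor on both arrays of week 4.

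Acaa2, the mitochondrial thiolase that releases acetyl-CoA, was read by 3 probe sets. On the brightest, 1428146_s_at, it had 16576, 15046 and 19469 on the high-fat arrays, against 16525, 20630 and 19049 on the control arrays, with differences of 0.00, -0.46 and 0.03. The probe set 1428145_at gave 0.36, -0.22 and -0.29 at weeks 2, 4 and 10, and 1455061_a_at gave 0.05, -0.53 and -0.13. At week 4 all 3 probe sets had their lower signal in the high-fat liver, and at week 10 they split. The week 4 direction depended on the scaling, since the brightest probe set gave 0.13 there after quantile normalization and 0.06 after the loess correction.

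Agreement between probe sets of a gene was examined within each week. Probe sets of a gene are read on the same arrays, so their gaps leave out what is common to all probe sets of an array. A gap can hold error of the probe sets, matches to other sequences or RNA quality, and these parts were not tested. Error between mice, RNA samples or arrays had no measure, with 1 array per diet and week. For the 6 genes with over 1 tested probe set, all probe sets had the same sign for 4 genes at week 2, 2 at week 4 and 2 at week 10. Across 1931 genes of the series with 2 probe sets over the floor on all 6 arrays, the brightest and the next brightest had the same sign for 53.9%, 62.7% and 60.1% at the 3 weeks. The absolute gap between them had a median of 0.36, 0.26 and 0.41. On their brightest probe sets 7 of the 10 genes stayed under 0.5 in size at every week, and the exceptions were Acadl at week 4, and Slc25a20 and Hadha at week 10. The gap of 1434866_x_at from the brightest Cpt1a probe set at week 2 was 1.15, and 4.04% of those genes had a gap as large. That of 1438156_x_at was 1.64 (0.57% of genes) at week 2 and 1.05 (2.49%) at week 4. For Slc25a20 the gap at week 10 was -1.36 (4.61% as large in size), and for Cpt2 at week 4 it was -0.94 (4.04%), there with the dimmer probe set at the floor.

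Weeks 10 and 2 could be compared within each diet, a comparison that follows feeding time and the age of the mice at once. On the high-fat diet 8 of the 10 genes had lower values at week 10 than at week 2, with a median of -0.22, where the median over all genes was 0.10. On the control diet 6 of 10 were lower, with a median of -0.13, against 0.01 for all genes, and in the deposited values that median was -0.83. Cpt2 was the gene at least 1.5-fold lower at week 10 on the high-fat diet (-0.61), where 13.2% of all genes were that much lower and 19.8% higher. On the control diet it was Slc25a20 (-0.80 on its brightest and 0.33 on its other probe set), where 9.59% of all genes were lower and 11.8% higher. None of the 10 was 1.5-fold higher in either diet.

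The largest differences with time were again those of Cpt1a, on its 2 probe sets with the suffix x. On the high-fat diet 1438156_x_at had -2.56 at week 10 relative to week 2 on the log2 scale, 1434866_x_at had -1.58 and the brightest probe set -0.47. On the control diet the same probe sets had 0.24, 0.14 and 0.18. All 3 probe sets were thus lower at week 10 than at week 2 on the high-fat diet and higher on the control diet, by unequal amounts. The second probe set of Hadhb had -0.87 on the high-fat diet and -0.31 on the control diet. Each value is the difference of 2 arrays and has no test. The 3' to 5' ratio of pyruvate carboxylase was 9.64 at week 2 and 2.39 at week 10 on the high-fat arrays, against 3.82 and 4.01 on the control arrays. For beta-actin it was 1.61 and 1.17 on the high-fat arrays, against 1.20 and 1.73, and for GAPDH 1.01 and 0.83, against 0.78 and 0.91. The part of RNA quality in the differences with time was not tested.

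**Figure D4:**
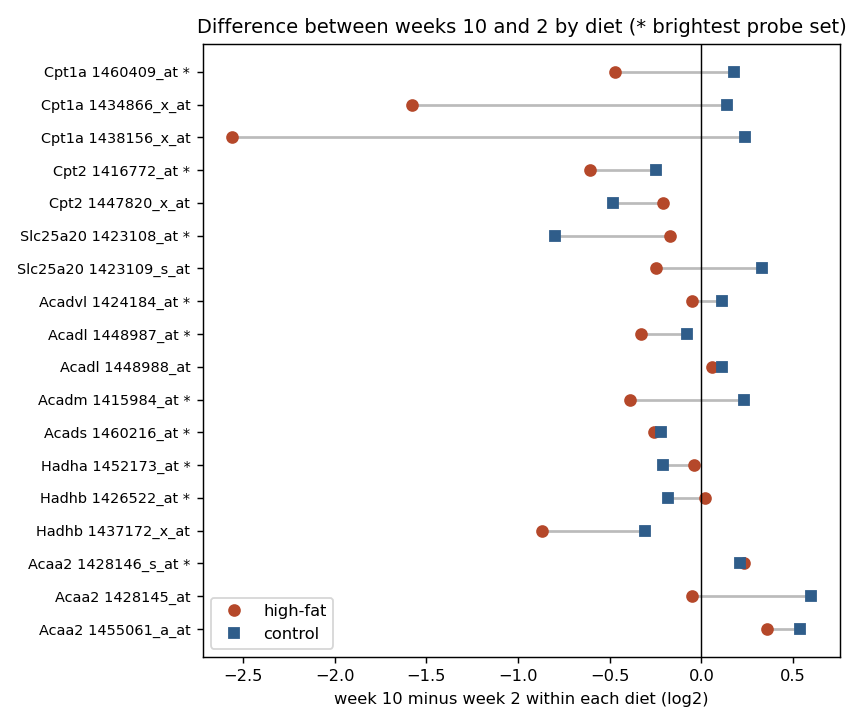
For each of the 18 tested probe sets, the log2 difference between weeks 10 and 2 on the high-fat diet (circles) and on the control diet (squares), with an asterisk at the brightest probe set of a gene. The probe sets 1434866_x_at and 1438156_x_at of Cpt1a stand apart on the high-fat diet at -1.58 and -2.56.

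The wider pathway was read through lists of other genes. Among 12 auxiliary enzymes and electron carriers, no gene passed limma's test in either direction, and the medians at weeks 2, 4 and 10 were 0.03, -0.04 and 0.14. Acad9, an acyl-CoA dehydrogenase that also helps assemble respiratory complex I, had 492.2, 1034 and 999.3 on the high-fat arrays, against 479.7, 959.5 and 345.8 on the control arrays, and so stood 1.53 higher on the log2 scale at week 10. Its other probe set gave 0.69 there. Acad10, of the same family, had 0.21, 0.14 and 0.56, and Etfa, a subunit of the flavoprotein that takes electrons from the dehydrogenases, -0.18, -0.46 and -0.25.

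Of 17 genes of acyl-CoA, carnitine and malonyl-CoA supply, 13 were tested, none passed limma's test in either direction, and the medians were -0.03, -0.08 and -0.04. Acacb, the acetyl-CoA carboxylase whose malonyl-CoA product inhibits the Cpt1 enzymes, had 435.7, 738.9 and 1151 on the high-fat arrays, against 656.0, 548.0 and 278.0 on the control arrays. Its differences of -0.59, 0.43 and 2.05 placed the high-fat array lower at week 2 and higher at weeks 4 and 10. Acsl5, an acyl-CoA synthetase, had 0.14, -0.14 and 0.75, and Slc27a2, a very-long-chain acyl-CoA synthetase and transporter, -0.03, -0.42 and -0.30.

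Of the 3 lists, the regulators had the widest spread of weekly medians, at 0.11, 0.29 and -0.45 (13 of 17 genes tested, none passing limma's test in either direction). At week 2, 10 of 13 had higher values on the high-fat array, at week 4 11 of 13, and at week 10 8 of 13 had lower ones. Among those above the floor on all 6 arrays, the mean difference was largest for Rxrb, Ppargc1a and Lpin1. Rxrb, a partner of PPAR-alpha, had 0.07, 0.50 and 0.26. Ppargc1a, a coactivator of oxidation genes, had 0.40, 0.09 and 0.18. Its 3 other probe sets gave -0.48 to 0.28 at week 2, -0.54 to 0.26 at week 4 and -0.56 to -0.32 at week 10. Lpin1, which acts in triglyceride synthesis and as a coactivator, had -0.33, 0.04 and 0.69. Chosen after their values were seen, Ppara itself had 4049, 2858 and 3583 on the high-fat arrays, against 2891, 2169 and 5193 on the control arrays. Its differences were 0.49, 0.40 and -0.54. Fgf21, a hormone gene that PPAR-alpha is known to activate in liver, also chosen after its values were seen, had 589.8, 282.0 and 101.7 on the high-fat arrays, against 750.2, 135.0 and 814.4 on the control arrays. At week 10 it was at least 5.24-fold lower in the high-fat liver, where the signal lay under the floor, and at week 4 the control signal lay under it. For 14 mitochondrial genes outside fatty acid oxidation the medians were -0.01, -0.29 and -0.31, with 13 of 14 lower at week 4. Of all 8850 genes tested, 4064 were lower and 3004 higher at that week. Bright probe sets tended lower there, with a median of -0.143 for the 3633 brightest of those tested, against 0.0 for the 3634 dimmest. The part of brightness and of scaling in the values of these 14 genes was not tested.

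**Figure D5:**
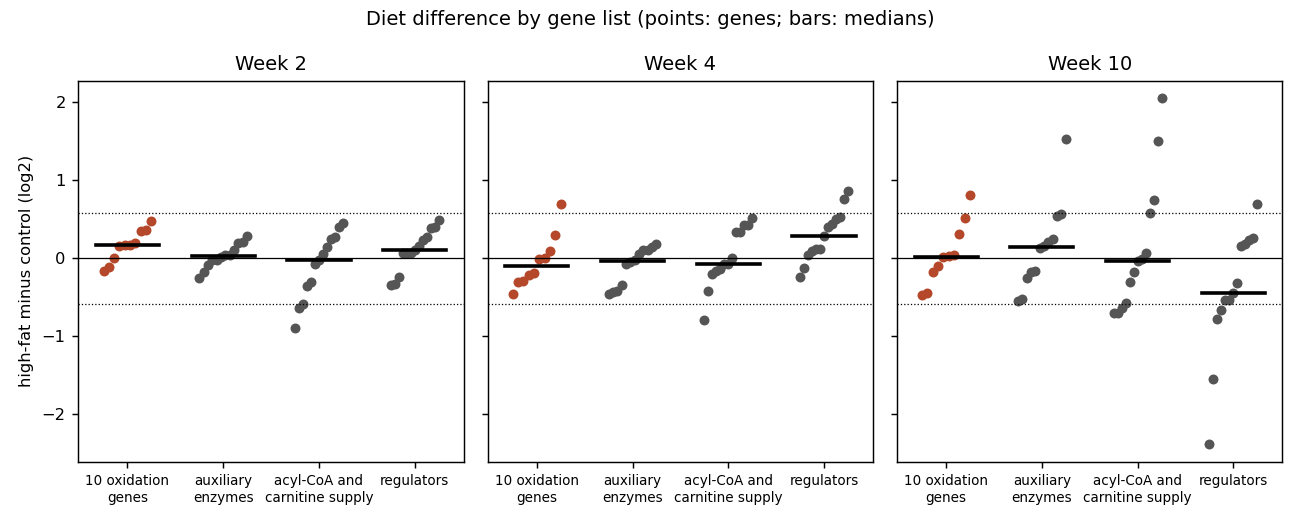
Log2 difference between high-fat and control (vertical axis) of each tested gene on its brightest probe set, by list and week, with black bars at the medians and dotted lines at 1.5-fold. The 10 oxidation genes have medians of 0.17, -0.10 and 0.02, and the regulators 0.11, 0.29 and -0.45.

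The genes with the most similar levels to Cpt1a were sought by the root mean square distance of the 6 log2 levels, each centred on its own mean, among 8849 genes. The nearest to the brightest Cpt1a probe set were Cspp1 (0.054), Pfn1 (0.054), Rfwd3 (0.057), Spns2 (0.062) and Fam83h (0.063). Acadm, at 0.149 and rank 106, was the nearest of the other 9 oxidation genes, and Slc25a20, at 0.399 and rank 3627, the farthest. For Hadha the nearest were Ltbr (0.054), Slc6a9 (0.066), Ralb (0.079), Kif3a (0.085) and Kcnc1 (0.093). Acads stood at rank 105 (0.170), while Hadhb, the partner subunit of Hadha, stood at rank 2093 (0.354). None of the nearest 5 genes of either was an oxidation gene. With 9 other oxidation genes among 8849, this was likely beforehand, and no conclusion is drawn from it. The 6 levels share the array scaling and the split between array designs.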

How the data were processed

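Total RNA of frozen liver was labelled with biotin by in vitro transcription, per the labels' protocols. The authors deposited a linear signal intensity for every probe set. The sources used here do not name the program that summarized the probes. The means after trimming 2% at each end were 499.9 or 500.0 on 5 arrays and 799.9 on the control array of week 2, from which a common scaling target is read for the 5. No detection column was used.

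The deposited intensities were put on the log2 scale, 64 control probe sets were dropped, and of the 22626 probe sets on both designs those above the floor everywhere set the median to which an array was centred. The floor was the pooled 40th percentile (155.3, or 7.28 on the log2 scale), and a difference is a bound where an array lies under it. The 14533 probe sets above the floor on at least 3 arrays were tested with limma 3.58.1 in R 4.3.3 (diet, with week as a block, Benjamini-Hochberg at 0.05). The brightest probe set on average stood for a gene (8850 genes tested). The test's spread is that of the diet difference between weeks, drawn by limma toward that of all probe sets, and p-values measure only that.

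Gene symbols came from the platform annotation, checked by gene identifier in RefSeq for 20351 of 20380 probe sets with 1 symbol. Another 691 had several and 1555 none. In simulated data on 14533 probe sets, 0 of 67 changes of 1 on the log2 scale were recovered, 43.3% of 67 changes of 2 and 87.9% of 66 changes of 4, with 1 false call. The number of arrays limits the precision.

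The members and lists were chosen with earlier results of these data known. Named beside the 10 genes were, per list, up to 3 genes with the largest mean difference among those above the floor on all arrays, and the 5 genes nearest in pattern to Cpt1a and Hadha. Alternatives were other scalings, floors and filters, other probe set choices, no block, trended robust variances, and leaving out each week. Figures were drawn with matplotlib 3.10.9.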

Additional observations from a re-analysis of the deposited data

Results flagged for a closer look

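The diet difference of Cpt1a on the probe set 1438156_x_at went opposite ways at different weeks, by at least 1.5-fold on either side. It was 2.12 at week 2 and 1.03 at week 4, and -0.69 at week 10, on the log2 scale of high-fat minus control. With 1 array per diet and week, the difference between weeks was not tested.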

How the results depend on the processing

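No probe set of the 10 genes was called under any of the 12 alternatives to the test, whose adjusted p for the brightest probe sets were 0.646 or above, and in simulated data of this size no change of 1 on the log2 scale was recovered. The number of all probe sets called higher, 2, was 6 with the values as deposited, 1 with trended robust variances, and 0 without the week block, without the filter, with quantile normalization, with loess on brightness and with a floor at either the 20th or the 60th percentile. It ran from 0 without week 4 to 7 without week 2. The number called lower, 0, was 4 as deposited and ran from 0 to 2 when a week was left out (2 without week 2). Of 120 mean differences of the 10 genes, 106 kept their sign. Many of these could not turn. The other floors, no filter, the brightest probe sets alone, no week block and trended robust variances left each mean as it was. Signs turned as deposited for Cpt1a (-0.10) and Acads (-0.07). They turned under quantile normalization for Acadvl (0.11), Acadm (0.02), Hadhb (0.09) and Acaa2 (0.12), and under loess for Acadvl (0.13), Acadm (0.03), Hadhb (0.11) and Acaa2 (0.12). With 1 week left out, the mean difference ran from -0.10 (without week 2) to 0.23 (without week 10) for Cpt1a, from -0.14 (without week 2) to 0.09 (without week 4) for Acadvl, from -0.08 (without week 10) to 0.02 (without week 2) for Hadhb, and from -0.23 (without week 10) to 0.02 (without week 4) for Acaa2. The sign did not turn for the other 6 genes, with ranges of -0.29 (without week 4) to -0.01 (without week 10) for Cpt2, 0.25 (without week 10) to 0.56 (without week 2) for Slc25a20, 0.03 (without week 4) to 0.43 (without week 10) for Acadl, -0.33 (without week 2) to -0.02 (without week 10) for Acadm, 0.00 (without week 2) to 0.33 (without week 4) for Acads, and 0.08 (without week 10) to 0.44 (without week 4) for Hadha. As deposited, the week 2 median was -0.50 with 3 genes at least 1.5-fold different, and the median of week 10 minus week 2 on the control diet was -0.83. The week 4 median was 0.14 under quantile normalization, 0.19 under loess and -0.21 when all probe sets of a gene were averaged. That of week 10 was 0.14 under loess and -0.10 with this average. With it, 1 gene (Cpt1a) was 1.5-fold different at week 2 and 0 at weeks 4 and 10. At week 10, 2 genes were so under quantile normalization and 2 under loess. The cause was not tested, except that values as deposited keep the higher target of the control array of week 2.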
